A study of Mus musculus with 28 samples.

Results

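The genes described here are 59 named genes of known function spread along mouse chromosome 14, followed in nascent RNA of wild-type (WT) and EloA null mouse embryonic stem cells (mESC). They were fixed as a list of symbols, after an earlier look at these data had shown that genes of this chromosome stood about 1.4-fold higher in EloA null mESC in steady state, so the chromosome itself was selected on the steady-state ratio and that ratio is given below as a description with no test. All 59 symbols were found in each table of 24980 uniquely named genes. A gene was used in a condition when its mean RPKM (reads scaled to gene length and library size) was above 0.5 in either genotype, which kept 57 of the 59 in steady state, 48 after 5 min of recovery and 52 after 10 min. Anxa11, Bmp4 and Tep1 passed the limit in steady state only through the EloA null libraries, so they had to be higher there, and Ppif passed at 5 min only through WT.

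The tables come from Bru-seq, a method that feeds cells the nucleoside 5-bromouridine (Bru) for some minutes, captures the RNA that carries it with an antibody and sequences that RNA. Cells were either pulsed with 2 mM Bru for 10 min in steady state, or held for 60 min in 1 µM flavopiridol (FP), a P-TEFb inhibitor that blocks productive elongation by Pol II, and, after a wash, pulsed for 5 or 10 min. Of the 12 libraries, each condition had 2 of WT and 2 labelled EloA null. Both genotypes were grown with LIF and 2 kinase inhibitors (2i) on feeder fibroblasts and were depleted of the feeders before use. The labels give the line once as CCE28 and once as CJ7 and do not say from how many clones the EloA null cells derive. Libraries held between 9857527 reads (WT, 5-min recovery) and 28547356 reads (EloA null, 10-min recovery), and a gene of the list was covered by as few as 3 reads in one of them and by 21620 in another.

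The labels need care, since the first steady-state library titled EloA null carries a genotype label of wild type. It was grouped by its title, and Eloa, the targeted gene on chromosome 4, did not separate it: its RPKM was 1.96 there and 1.89 in the other library titled EloA null, against 1.18 and 1.16 in WT. Nascent RNA of Eloa was thus higher, not lower, in the libraries labelled EloA null, with 5.69 ± 0.78 against 2.89 ± 0.102 (SD, n = 2) at 5 min and 8.83 ± 0.129 against 5.58 ± 1.32 (SD, n = 2) at 10 min. Reads over the whole gene do not report on a deleted part or on the protein, neither of which was analysed here. All directions below are therefore by label. All 10 markers of embryonic stem cells passed the RPKM limit in each condition, while of 10 feeder markers 0 passed in steady state and 2 in recovery. The summed RPKM of the feeder markers ran from 1.85 to 2.36 in WT and from 1.45 to 1.73 in EloA null in steady state. Of 6 markers of primitive endoderm 1 passed in steady state, with sums of 4.01 to 4.19 in WT and 3.11 to 3.12 in EloA null, and of 6 neural markers 2 passed, with sums of 1.5 to 1.67 and 1.84 to 2.29. In recovery the endoderm sums were 5.64 to 6.12 in WT against 3.54 to 3.94 in EloA null at 5 min and 4.3 to 4.51 against 2.71 to 2.78 at 10 min, and the feeder sums 2.63 to 2.67 against 1.38 to 2.1 and 3.08 to 4.2 against 2.14 to 2.97. The part of these cells in the results was not tested.

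EloA is the large subunit of Elongin, a trimer with EloB and EloC that stimulates Pol II elongation in vitro and also acts in a ubiquitin ligase. The genes on a mouse chromosome share no common pathway, and those of chromosome 14 serve DNA repair, chromatin, splicing, nuclear transport, ubiquitin, mitochondria, traffic and signalling. The genes that lie off the common ratio are therefore ordered below by position, by length and by role.

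The shift met nearly the whole list. In steady state the median log2 ratio of mean RPKM, EloA null over WT, was 0.54 (1.45-fold) for the 57 genes above the limit, beside 0.52 for the 359 other genes of chromosome 14 and 0.03 for the 10896 genes outside it. Median ratios of the other chromosomes ran from -0.03 to 0.14. At 5 min the corresponding medians were 0.49 for 48 listed genes, 0.48 for 300 other chromosome 14 genes and -0.08 for genes outside it, and at 10 min they were 0.48 for 52, 0.54 for 333 and 0.05. The ratio stood in the recovery libraries as in the steady-state libraries, which are separate samples of the same WT and EloA null cells.

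**Figure D1:**
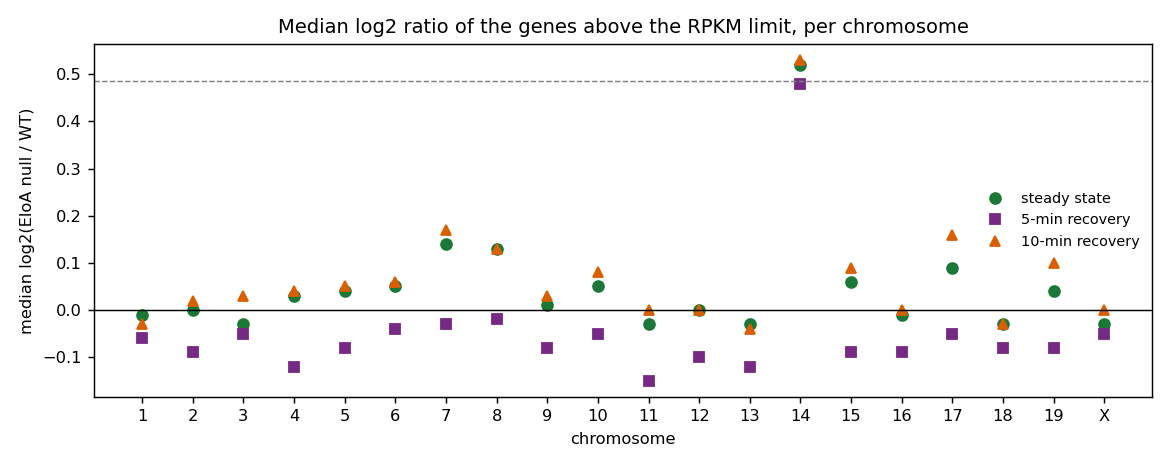
Median log2 ratio of mean RPKM (EloA null over WT, y axis) of the genes above the RPKM limit on each chromosome (x axis), with circles for steady state, squares for 5-min and triangles for 10-min recovery, and the dashed line at log2 of 1.4. Chromosome 14, with the listed genes included, stands apart from every other chromosome drawn in each condition, since the other medians reach at most 0.14 in steady state and 0.17 at 10 min.

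Genes were sorted by how far they followed a 1.4-fold rise (0.49 on the log2 scale). A log2 ratio within 0.25 of it, which spans 1.18-fold to 1.66-fold, was called following, and a gene outside was called below or above. In steady state 45 of 57 genes followed, 7 were below (Exoc5, Esd, Uchl3, Mycbp2, Ipo5, Dock9 and Ubac2) and 5 were above (Haus4, Chchd1, Ipo4, Anxa11 and Tpt1). Thus 50 of 57 were past the lower bound, against 26.0% of all genes tested in that condition, and since the ratio chose the chromosome nothing is read from the difference. At the lower bound Pcca lay just inside with 0.27 and Mycbp2 just outside with 0.22, and at the RPKM limit Bmp4 was just over with 0.587 and Farp1 just under with 0.258.

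Even the genes called below were higher in EloA null in steady state. Both EloA null libraries stood above both WT libraries for all 57 genes that passed the limit, against 32.0% of all genes tested. The same order held for both genes under the limit. Uggt2, which recognises misfolded glycoproteins in the endoplasmic reticulum, had an RPKM of 0.123 and 0.145 in WT and 0.181 and 0.186 in EloA null, and Farp1 had 0.242 and 0.235 in WT and 0.266 and 0.25 in EloA null. No gene of the list thus had overlapping libraries in steady state, but such order does not show that a gene carries the shift. It was also met by 29.7% of the genes outside chromosome 14. The genes called below had log2 ratios from 0.10 to 0.22, against quartiles of -0.12 and 0.22 for genes of any length outside chromosome 14. All of them are longer than 15 kb, and outside chromosome 14 such genes had lower ratios. The upper quartile there was 0.13 for genes of 15 to 60 kb and 0.06 for genes over 60 kb. Each gene called below exceeded the quartile of its class, the lowest in each class being Ipo5 (0.16) and Ubac2 (0.10). Whether a single gene of these carries a smaller shift or none was not tested.

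**Figure D2:**
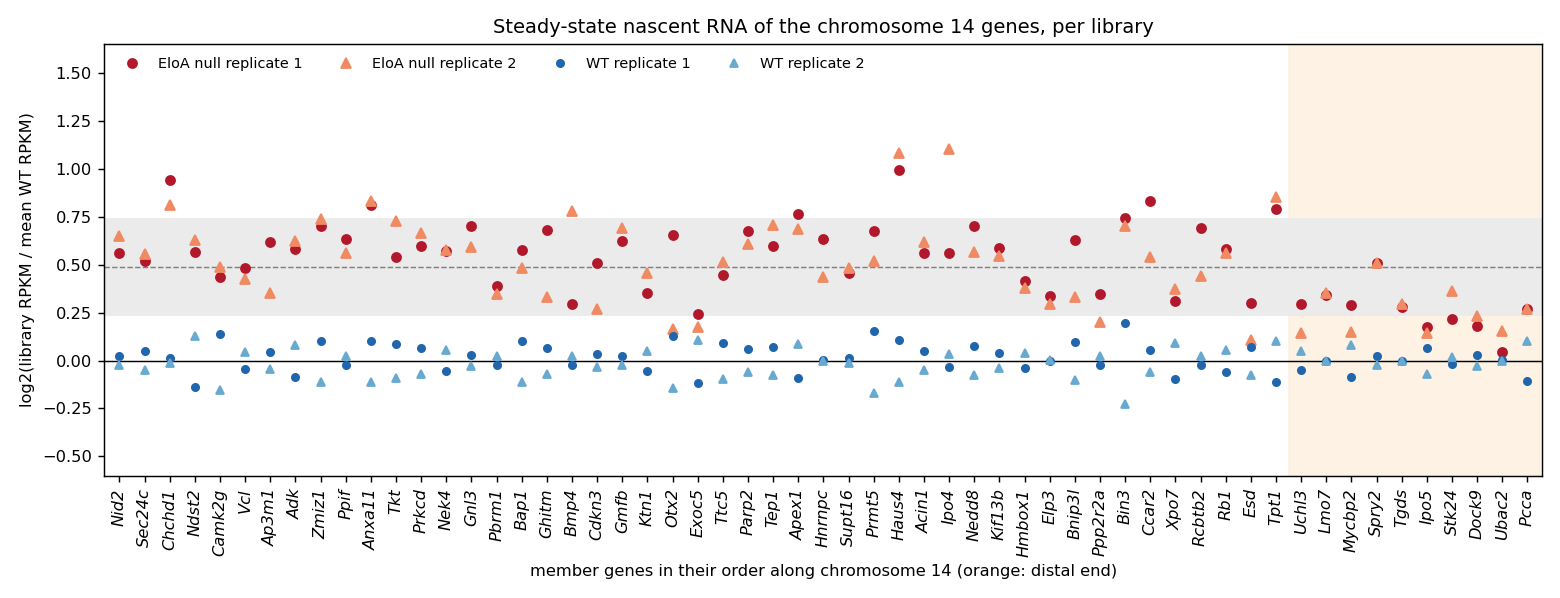
Log2 of each library's RPKM over the mean WT RPKM in steady state (y axis) for the 57 genes above the limit in their order along chromosome 14 (x axis), with EloA null libraries in red and orange and WT libraries in blue, the dashed line at log2 of 1.4 and the grey band 0.25 either side. Red and orange points lie above the blue points of the same gene throughout, and the 10 genes of the distal end, shaded, lie lower than most of the others, with a median of 0.25 against 0.57.

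The genes with the lowest ratios clustered at the far end of the chromosome. The list has no gene above the limit between Tpt1, near 75.8 Mb, and Uchl3, near 101.7 Mb, and a line drawn at 95 Mb after the values had been seen divides it into 47 proximal and 10 distal genes above the limit. In steady state the median log2 ratio was 0.57 for the proximal genes and 0.25 (1.19-fold) for the distal genes, and 5 of the 7 genes called below were distal. The other genes of the chromosome showed the same step, with 0.55 for 316 proximal and 0.24 for 43 distal genes. In windows of 10 Mb, over all chromosome 14 genes, the median was between 0.48 and 0.83 up to 80 Mb, 0.40 for the 2 genes between 80 and 90 Mb, and between 0.16 and 0.27 beyond. Each EloA null library gave it alone, with medians over WT of 0.58 and 0.56 for proximal and 0.27 and 0.25 for distal genes. After 5 min of recovery the medians were 0.52 and 0.17 for 38 proximal and 10 distal genes, and after 10 min they were 0.54 and 0.25 for 42 and 10.

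Ubac2, Ipo5, Esd and Haus4 include the lowest and the highest steady-state ratio, and their promoters are shown so that low and high genes can be set side by side. Promoter windows of 250 bases were taken from the RefSeq table of GRCm38.p6, which held 44 of the 59 genes and lists 1 start per gene, not always the outer end of the gene's span. The windows of Ipo5 and Haus4 lie inside the spans given below, and those of Esd and Ubac2 run across the outer start. The windows are chr14:54554362-54554611 on the minus strand for Haus4 and, on the plus strand, chr14:74732047-74732296 for Esd, chr14:120910944-120911193 for Ipo5 and chr14:121878356-121878605 for Ubac2. Capitals mark the TATA box as TATAAA, the box of the factor NF-Y as CCAAT, the GC box of the Sp1 family as GGGCGG and the core of the NRF1 site as CGCATGCG. Each was searched on both strands, and none is part of another.
Haus4: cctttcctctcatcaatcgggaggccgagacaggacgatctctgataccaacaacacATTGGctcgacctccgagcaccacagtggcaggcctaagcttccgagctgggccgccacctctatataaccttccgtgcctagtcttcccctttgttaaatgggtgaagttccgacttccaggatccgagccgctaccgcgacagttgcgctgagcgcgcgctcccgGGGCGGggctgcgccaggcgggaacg
Esd: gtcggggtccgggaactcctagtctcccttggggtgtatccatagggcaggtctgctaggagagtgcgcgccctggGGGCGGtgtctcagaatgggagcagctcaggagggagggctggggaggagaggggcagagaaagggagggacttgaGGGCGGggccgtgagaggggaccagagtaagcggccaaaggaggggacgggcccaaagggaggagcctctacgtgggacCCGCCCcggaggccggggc
Ipo5: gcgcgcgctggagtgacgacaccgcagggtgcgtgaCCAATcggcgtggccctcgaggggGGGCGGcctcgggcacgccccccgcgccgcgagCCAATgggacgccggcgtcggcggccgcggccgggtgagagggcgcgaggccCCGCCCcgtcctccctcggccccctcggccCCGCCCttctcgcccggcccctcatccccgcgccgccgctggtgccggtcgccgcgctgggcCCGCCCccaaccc
Ubac2: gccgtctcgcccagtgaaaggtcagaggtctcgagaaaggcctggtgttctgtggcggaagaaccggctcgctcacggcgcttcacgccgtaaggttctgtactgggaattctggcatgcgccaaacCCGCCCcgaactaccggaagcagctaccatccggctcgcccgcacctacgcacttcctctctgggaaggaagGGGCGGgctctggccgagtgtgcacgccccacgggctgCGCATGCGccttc
Haus4, with the highest ratio in steady state, and Esd, Ipo5 and Ubac2, with low ratios there, all hold a GC box and no TATAAA. In the 44 windows GGGCGG occurred in 59.1%, CCAAT in 36.4%, CGCATGCG in 9.09% and TATAAA in 4.55%, against 32.9%, 34.5%, 1.58% and 13.0% of all 27025 promoters in the table. Those were taken whatever their RPKM, and their median GC content was 52% with 6 CG pairs, against 60.8% and 18 in the 44 windows. Whether the shares differ from those of other transcribed genes was not tested. The median GC content of the windows was 60.4% for 35 proximal genes and 62.4% for 9 distal genes, and CGCATGCG was in 1 of the 35 and in 3 of the 9. Those 3 were Uchl3, Ubac2 and Uggt2, of which Uggt2 was under the RPKM limit in each condition. A link between a motif and the ratio was not tested.

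Ubac2, a membrane protein of the endoplasmic reticulum with a ubiquitin-associated domain, had the lowest ratio of the genes above the limit in steady state. It lies at 121878559 to 122021035 on the plus strand of chromosome 14 in GRCm38 and has 5 genes annotated within it or across its ends, Gpr18 and Gpr183 among them. Its steady-state RPKM was 3.27 and 3.25 in WT and 3.36 and 3.63 in EloA null, a log2 ratio of 0.10. The libraries did not overlap, although the lower EloA null library stood barely above WT. At 5 min the values were 4.96 and 4.87 in WT and 5.73 and 4.79 in EloA null, which overlap, and at 10 min 2.03 and 1.91 against 2.12 and 2.09. In all 3 conditions the log2 ratio was 0.10.

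Ipo5, an importin that carries ribosomal proteins and histones into the nucleus, came next in steady state. It spans 120896840 to 120948046 on the plus strand. In steady state its RPKM was 8.27 and 7.53 in WT and 8.91 and 8.74 in EloA null (log2 ratio 0.16). After 5 min it was 2.37 and 2.39 in WT and 1.87 and 2.36 in EloA null (log2 ratio -0.17). The second EloA null library was barely under WT. After 10 min the groups overlapped at 7.94 and 6.55 against 7.46 and 7.18 (0.01).

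Dock9 lies at 121538365 to 121797900 on the minus strand between Stk24 and Ubac2. Its steady-state RPKM was 1.36 and 1.31 in WT and 1.51 and 1.57 in EloA null, a log2 ratio of 0.21, and it kept 0.21 at 5 min and 0.19 at 10 min. Dock9, Ubac2 and Ipo5 were the genes that stayed below in all 3 conditions, of the 48 that passed the limit in each. In the order of the list Ipo5 is followed by Farp1, Stk24, Dock9, Ubac2 and Pcca, and Farp1 was under the limit.

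Stk24, a kinase of the Ste20 family, showed the same low values in recovery more than in steady state. Its steady-state RPKM was 3.36 and 3.44 in WT and 3.95 and 4.37 in EloA null (0.29, following). At 5 min the groups overlapped at 0.682 and 0.561 against 0.572 and 0.525 (-0.18), and at 10 min the values were 1.27 and 1.26 against 1.44 and 1.31 (0.12). Pcca, a subunit of the mitochondrial propionyl-CoA carboxylase and the last gene of the list, did the opposite, with log2 ratios of 0.27 in steady state, 0.61 at 5 min and 0.45 at 10 min.

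The remaining distal genes filled the range between. Uchl3, a ubiquitin C-terminal hydrolase that also cleaves NEDD8, had a steady-state RPKM of 2.9 and 3.1 in WT and 3.68 and 3.31 in EloA null (0.22), with 0.05 at 5 min and 0.32 at 10 min. Mycbp2, a very large E3 ubiquitin ligase, gave 0.22, 0.44 and 0.35, and Tgds, a nucleotide-sugar dehydratase, gave 0.29, 0.14 and 0.22. Lmo7, a LIM-domain protein of cell junctions, gave 0.35, 0.49 and 0.29.

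Spry2, a distal gene that followed in all 3 conditions, is a feedback inhibitor of receptor tyrosine kinase signalling. At 105891947 to 105896819 on the minus strand it is also the shortest distal gene of the list, 4.87 kb long. Its steady-state RPKM was 7.07 and 6.86 in WT and 9.89 and 9.91 in EloA null (log2 ratio 0.51). At 5 min it was 10.6 and 11.1 against 15.1 and 17.7 (0.60), and at 10 min 15.2 and 15.5 against 22.1 and 22.4 (0.54). Spry2 thus followed the 1.4-fold rise in every condition, as Lmo7 and Pcca of the distal end also did. Of the distal genes above the limit it had the highest ratio in steady state and at 10 min, while Pcca had 0.61 at 5 min.

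The ratio also varied with gene length, on chromosome 14 as elsewhere. In steady state the median log2 ratio of the listed genes was 0.62 for the 18 under 15 kb, 0.52 for the 22 between 15 and 60 kb and 0.37 for the 17 over 60 kb. Outside chromosome 14 it was 0.14, -0.01 and -0.07 for the same classes, so the slope was not confined to the list. Pearson's r between the log2 ratio and log10 length was -0.51 over the 57 genes and -0.40 over the 47 proximal genes in steady state, 0.02 over 48 genes at 5 min and -0.47 over 52 genes at 10 min; these genes share libraries and neighbours, and distal genes were longer (median 119 kb against 25.6 kb). With GC content of the gene, r was 0.55 in steady state, -0.15 at 5 min and 0.31 at 10 min, and GC content was not adjusted for. With log2 WT RPKM it was -0.14 in steady state, 0.28 at 5 min and 0.01 at 10 min.

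To set length aside, the median ratio of the 500 genes outside chromosome 14 nearest in length was subtracted from each gene's ratio, an adjustment chosen after the values had been seen. The difference was then nearly the same in each length class of the proximal genes in steady state, with medians of 0.49, 0.56 and 0.52 from short to long, and r with length was 0.14. For the 10 distal genes the median difference was 0.28 (1.21-fold), from 0.17 for Ubac2 to 0.41 for Lmo7, against 0.52 (1.44-fold) for the proximal genes. Spry2 was at 0.30 on this scale in steady state and at 0.25 at 10 min, near the distal medians, but at 0.57 at 5 min, where it was the highest of the 10 distal genes. The step remained at 5 min, with 0.23 for distal and 0.59 for proximal genes, and at 10 min, with 0.25 and 0.54. In recovery the adjustment did not set length aside throughout. Over proximal genes r with length went from 0.16 to 0.28 at 5 min and from -0.41 to 0.11 at 10 min. Over distal genes it went from 0.09 to -0.01 at 5 min and from -0.20 to 0.43 at 10 min.

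**Figure D3:**
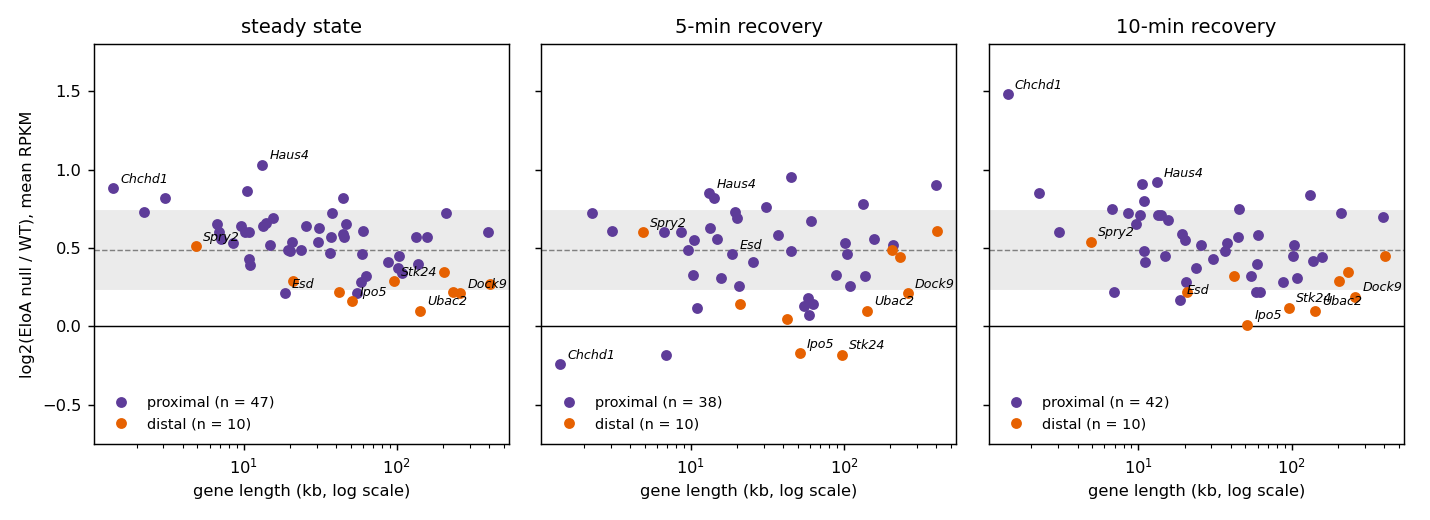
Log2 ratio of mean RPKM (EloA null over WT, y axis) against gene length in kb (x axis, log scale) for the listed genes above the limit in steady state, 5-min and 10-min recovery, with proximal genes in purple, distal genes in orange, the dashed line at log2 of 1.4 and the grey band 0.25 either side. Short genes lie higher in steady state and at 10 min, and orange points lie low at like length, with distal medians of 0.25, 0.17 and 0.25 in the 3 panels.

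Of the proximal genes 2 of 47 were below in steady state, 7 of 38 at 5 min and 4 of 42 at 10 min. Exoc5, a subunit of the exocyst that tethers secretory vesicles, spans 49011922 to 49066667 on the minus strand and overlaps Ap5m1. Its steady-state RPKM was 1.56 and 1.82 in WT and 2.0 and 1.91 in EloA null, a log2 ratio of 0.21, and the ratio was 0.13 at 5 min with overlapping groups and 0.32 at 10 min. Esd, the esterase that hydrolyses S-formylglutathione, spans 74732151 to 74750765 on the plus strand. It had 1.88 and 1.7 in WT against 2.2 and 1.93 in EloA null (0.21), 1.21 and 1.15 against 1.67 and 1.58 at 5 min (0.46), and 2.82 and 2.54 against 3.01 and 3 at 10 min (0.17). Esd is thus low in 2 conditions and follows in the other. After the adjustment for length both remained the lowest proximal genes in steady state, with 0.19 for Esd and 0.27 for Exoc5.

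Elp3, the catalytic subunit of the Elongator acetyltransferase, and Ppp2r2a, a regulatory B subunit of the phosphatase PP2A, sat near the lower bound in each condition. Elp3 had log2 ratios of 0.32, 0.14 and 0.22 in steady state, at 5 min and at 10 min, with WT libraries that differed little in steady state (4.6 and 4.61 against 5.82 and 5.65 in EloA null). Ppp2r2a had 0.28, 0.18 and 0.22. Both overlap no other annotated gene, and in all 3 conditions both of their EloA null libraries stood above both WT libraries.

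Haus4, a subunit of the augmin complex that nucleates microtubules within the spindle, had the highest ratio in steady state. It spans 54541785 to 54554989 on the minus strand and overlaps no other annotated gene. Its steady-state RPKM was 1.71 and 1.47 in WT and 3.16 and 3.36 in EloA null, a log2 ratio of 1.03 (2.05-fold). At 5 min it was 0.654 and 0.832 against 1.17 and 1.51 (0.85), and at 10 min 1.84 and 1.8 against 3.55 and 3.33 (0.92). Haus4 was above the band in all 3 conditions and its groups did not overlap, but Rcbtb2 (0.95) and Adk (0.90) were higher at 5 min and Chchd1 (1.48) at 10 min.

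Ipo4, an importin of the same family as Ipo5, lay at the other end of the range from it, with 2.27 and 2.38 in WT and 3.43 and 5.0 in EloA null (0.86). Its EloA null libraries differed from each other by more than the WT libraries did, and at 5 min the groups overlapped (0.55). Tpt1, the growth-related protein TCTP, had 5.99 and 6.95 against 11.2 and 11.7 (0.82), and Anxa11, an annexin of vesicle traffic, 0.461 and 0.397 against 0.753 and 0.764 (0.82), with no use in recovery as it fell under the limit. Apex1, the main AP endonuclease of base excision repair, had 6.58 and 7.46 against 11.9 and 11.3 (0.73), and its ratio was 0.72 at 5 min and 0.85 at 10 min. Tpt1 overlaps the small nucleolar RNA gene Snora31, and whether strand was used in the counting is not given in the sources used here, so their reads cannot be told apart.

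Chchd1, a protein of the mitochondrial ribosome, had a ratio above 0 in steady state and at 10 min and under 0 at 5 min, on few reads. It is the shortest gene of the list (1.4 kb, 20703027 to 20704425 on the plus strand) and overlaps 6230400D17Rik. Its RPKM was 1.35 and 1.33 in WT and 2.57 and 2.35 in EloA null in steady state (0.88, from 26 to 53 reads per library). At 5 min it was 1.63 and 1.66 against 1.35 and 1.43 (-0.24, from 13 to 20 reads), and at 10 min 1.38 and 1.4 against 3.84 and 3.95 (1.48, from 21 to 91 reads). The groups did not overlap in any condition, and EloA null was the lower one at 5 min alone. That lower value was not called in the test of the recovery tables given below.

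Close to 1.4-fold lay most of the list. Nearest of all in steady state were Bnip3l, a mitophagy receptor, with 1.8 and 1.57 in WT against 2.6 and 2.12 in EloA null (0.49), Ap3m1, a subunit of the AP-3 adaptor, with 2.62 and 2.47 against 3.91 and 3.25 (0.49), and Ttc5, a cofactor of p300 and p53, with 1.75 and 1.54 against 2.24 and 2.35 (0.48). Of the 48 genes above the limit in all 3 conditions, 23 followed in each, 3 were below in each and 1, Haus4, was above in each. The log2 ratio was above 0 in all 3 for 44 of the 48, the exceptions being Chchd1, Ppif, Ipo5 and Stk24, and both EloA null libraries exceeded both WT libraries in all 3 conditions for 36.

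By role, the ratios of most groups centred near the 1.4-fold rise. All 11 chromatin and transcription genes followed in steady state, with a median log2 ratio of 0.48 and a range from 0.32 to 0.72. All 11 are proximal, and 40 of the 47 proximal genes of the list followed, so role and position cannot be told apart here. They were Zmiz1, a coactivator of the PIAS family (0.72), Ccar2, an inhibitor of SIRT1 (0.69), Prmt5, an arginine methyltransferase (0.60), Rb1, the retinoblastoma protein (0.57), Bap1, a deubiquitinase of histone H2A (0.53), Ttc5, Supt16, a FACT subunit (0.47), Otx2, a homeobox factor of anterior development (0.43), Hmbox1, a telomere-binding homeobox protein (0.40), Pbrm1, a PBAF subunit (0.37), and Elp3. The groups of Otx2 came closest to each other of these, since its EloA null libraries gave 2.19 and 1.56 against 1.52 and 1.26 in WT. At 5 min 2 of the 11, Otx2 and Elp3, were below, and the groups of Otx2, Prmt5 and Ccar2 overlapped.

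Genes of DNA repair and telomeres, cell division and RNA binding were at or over 1.4-fold except Cdkn3. All of them are proximal too. Apex1, Parp2, which makes poly(ADP-ribose) at DNA breaks (0.64), and Tep1, a telomerase-associated protein (0.65), gave a median of 0.65. Of the cell division and growth group, Gnl3, the nucleolar protein nucleostemin (0.65), Nek4, a NIMA-related kinase (0.57), and Cdkn3, a phosphatase of cyclin-dependent kinases (0.39), followed, while Haus4 and Tpt1 were above. Gnl3 contains genes of small nucleolar RNAs, whose reads cannot be told apart from its own. Hnrnpc, which coats nascent transcripts (0.54), and Acin1, a splicing-associated protein (0.59), both followed.

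The group of ubiquitin and ubiquitin-like proteins had the lowest median in steady state, 0.22 for 5 genes, and it also held 3 distal genes. In recovery its median was 0.44 at 5 min and 0.35 at 10 min, above those of signalling (0.20 and 0.31) and nuclear transport (0.26 and 0.31). Its proximal genes, Nedd8, the ubiquitin-like modifier of cullins (0.64), and Rcbtb2, an RCC1- and BTB-domain protein (0.57), followed the rise, while Ubac2, Uchl3 and Mycbp2 of the distal end were below in steady state. Nuclear transport split the same way, with Ipo5 distal (0.16), Ipo4 proximal (0.86), and Xpo7, an exportin and proximal, between them (0.34). Within both groups the low genes were thus distal ones, and role and position cannot be told apart in groups this small.

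The signalling genes had a median of 0.48 in steady state over 8 genes, of which Dock9 was below and Stk24 and Ppp2r2a sat near the lower bound. Gmfb, glia maturation factor beta (0.66), Prkcd, a protein kinase C (0.63), Bmp4, a secreted growth factor (0.56), Spry2 and Camk2g, a calcium- and calmodulin-dependent kinase (0.46), lay near or over 1.4-fold. At 5 min 4 of the 6 signalling genes above the limit were below, Camk2g (0.07) and Ppp2r2a among them. Camk2g libraries overlapped at that time and were apart again at 10 min (0.40).

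Metabolic and mitochondrial genes included both a low and a high gene, Esd and Chchd1, and a median of 0.56 over 8. Tkt, transketolase of the pentose phosphate pathway (0.64), Adk, adenosine kinase (0.60), Ppif, the mitochondrial cyclophilin D (0.60), Ghitm, a protein of the inner mitochondrial membrane (0.52), Bnip3l and Pcca followed. Ppif was not apart between the genotypes in recovery, with log2 ratios of -0.18 at 5 min and 0.22 at 10 min and overlapping groups in both. Its values at 5 min rested on 20 to 39 reads per library, and it shares its locus with Ppifos, an antisense gene.

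Traffic, glycosylation and adhesion genes complete the list. Ndst2, which modifies heparan sulfate (0.60), Kif13b, a kinesin (0.57), Sec24c, a cargo adaptor of COPII vesicles (0.54), Ap3m1 and Ktn1, the kinesin receptor kinectin (0.41), followed, with Exoc5 below and Anxa11 above. Bin3, a BAR-domain protein (0.72), Nid2, the basement membrane protein nidogen-2 (0.61), Vcl, vinculin of adhesion sites (0.45), and Lmo7 gave a median of 0.53 for 4 genes. Nid2 is a well covered example of the typical rise, with 6.68 and 6.45 in WT and 9.68 and 10.3 in EloA null from at least 8888 reads per library, and with log2 ratios of 0.61, 0.67 and 0.58 over the conditions.

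The recovery tables were tested, since the steady-state ratio chose the chromosome. Their libraries are separate samples, but of the same WT and EloA null cells. A difference between these cells that chose the chromosome can recur in them, so the counts below are not an independent check of that choice. At 5 min 35 of 48 genes were past the lower bound against 16.4% of all genes, and in 36 both EloA null libraries exceeded both WT libraries against 15.4%. At 10 min these were 43 of 52 against 30.5% and 50 of 52 against 33.5%. By limma on log2(RPKM + 0.1) over all 12 libraries, 20 of 48 genes rose at 5 min at an adjusted p under 0.05, against 2.99% of all genes, and 18 of 52 rose at 10 min, against 2.57%. In the other direction limma called 0 listed genes in both conditions, with 1 at 5 min and 0 at 10 min at an unadjusted p under 0.05, and Chchd1 and Ipo5 had log2 changes at 5 min of -0.23 and -0.17 with limma adjusted p of 0.136 and 0.497. Of the other chromosome 14 genes 92 of 300 and 94 of 333 rose. The p-values measure the spread between libraries labelled as replicates, and with 2 against 2 an exact permutation test of one gene could not go below 0.333.

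The calls rest on the spread pooled over the 12 libraries. With the 4 libraries of a table alone limma called 0 genes in either recovery condition, although 24 and 33 had an unadjusted p under 0.05. Without any one library the count of genes that rose was between 6 (without the second EloA null library) and 15 at 5 min, with 9 and 13 without the first and the second WT library, and between 1 and 3 at 10 min for each library left out. With the replicate number as a block it was 15 at 5 min and 6 at 10 min.

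Genes that rose at both times were Acin1, Adk, Apex1, Bap1, Gmfb, Gnl3, Haus4, Kif13b, Nedd8, Nid2, Parp2, Pbrm1, Rb1, Rcbtb2, Spry2, Ttc5 and Vcl. The calls at 5 min also included Ap3m1, Esd and Lmo7, and those at 10 min Chchd1. Adk had the clearest rise at 5 min, with a log2 change of 0.86 (standard error 0.10, limma adjusted p = 0.00453), and Rb1 rose by 0.74 (standard error 0.09, limma adjusted p = 0.0055) at 5 min and by 0.77 (standard error 0.09, limma adjusted p = 0.00815) at 10 min. Rb1, whose product binds E2F factors, had 1.47 and 1.55 in WT against 2.76 and 2.42 in EloA null at 5 min and 0.832 and 0.86 against 1.48 and 1.55 at 10 min. Spry2 was the distal gene that rose at both times, by 0.59 (limma adjusted p = 0.0156) and 0.53 (limma adjusted p = 0.0261).

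A second test asked whether a gene's log2 change departed from the median of the other chromosome 14 genes, which on this scale was 0.46 at 5 min and 0.52 at 10 min. By limma's pooled errors 12 of 48 listed genes departed at 5 min and 9 of 52 at 10 min, against 63.1% and 50.6% of all genes, most of which lie on chromosomes without the shift. At 5 min the 9 that departed downward were Chchd1, Dock9, Elp3, Exoc5, Ipo5, Ppp2r2a, Stk24, Ubac2 and Uchl3, and Adk, Rb1 and Rcbtb2 departed upward. Chchd1 had only 13 to 20 reads per library there, which the errors do not take into account. At 10 min Dock9, Elp3, Esd, Ipo5, Ppp2r2a, Stk24 and Ubac2 departed downward, and Chchd1 and Rb1 upward. Dock9, Elp3, Ipo5, Ppp2r2a, Stk24 and Ubac2 fell short of the chromosome at both times, 4 of them distal. Most genes behind that median were proximal, 261 of 300 at 5 min and 292 of 333 at 10 min, and length was not adjusted for. The other distal genes had median log2 ratios of 0.28 and 0.25. For a distal gene this test therefore cannot tell a departure of its own from the distal step.

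Ubac2 lay 0.37 under the chromosome median at 5 min (departure -0.37, limma adjusted p = 0.0134) and 0.43 under it at 10 min (-0.43, limma adjusted p = 0.0086). Ipo5 departed by -0.63 (limma adjusted p = 0.00463) and -0.50 (limma adjusted p = 0.0138), Stk24 by -0.61 (limma adjusted p = 0.00255) and -0.41 (limma adjusted p = 0.0136), and Elp3 by -0.32 (limma adjusted p = 0.00719) and -0.31 (limma adjusted p = 0.0106). Haus4, high in all tables, departed by 0.31 (limma adjusted p = 0.0885) and 0.36 (limma adjusted p = 0.0687), which did not pass. With the 4 libraries of a table alone, 0 genes departed at 5 min (5 at an unadjusted p under 0.05) and 9 at 10 min. At 10 min 5 departed without the first EloA null library and 4 without the second.

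Ratios of single genes carried over between steady state and 10-min recovery more than to 5-min recovery. Over the 48 genes in all 3 conditions Pearson's r was 0.83 between steady state and 10 min, 0.43 between steady state and 5 min and 0.43 between the recovery times, as descriptions over genes that share a chromosome. By rank, Spearman's rho was 0.84, 0.48 and 0.64 in the same order. Coverage also differed between these times, as far as tables whose scaling to one another is not given can be set side by side. RPKM at 5 min was a median 0.399 of the steady-state value in WT for the 22 genes of 15 to 60 kb and 0.862 for the 17 over 60 kb, and at 10 min it was 1.17 and 0.735. In EloA null the same shares were 0.35 and 0.871 at 5 min and 1.05 and 0.779 at 10 min. The part of coverage and depth in the wider scatter at 5 min was not tested.

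**Figure D4:**
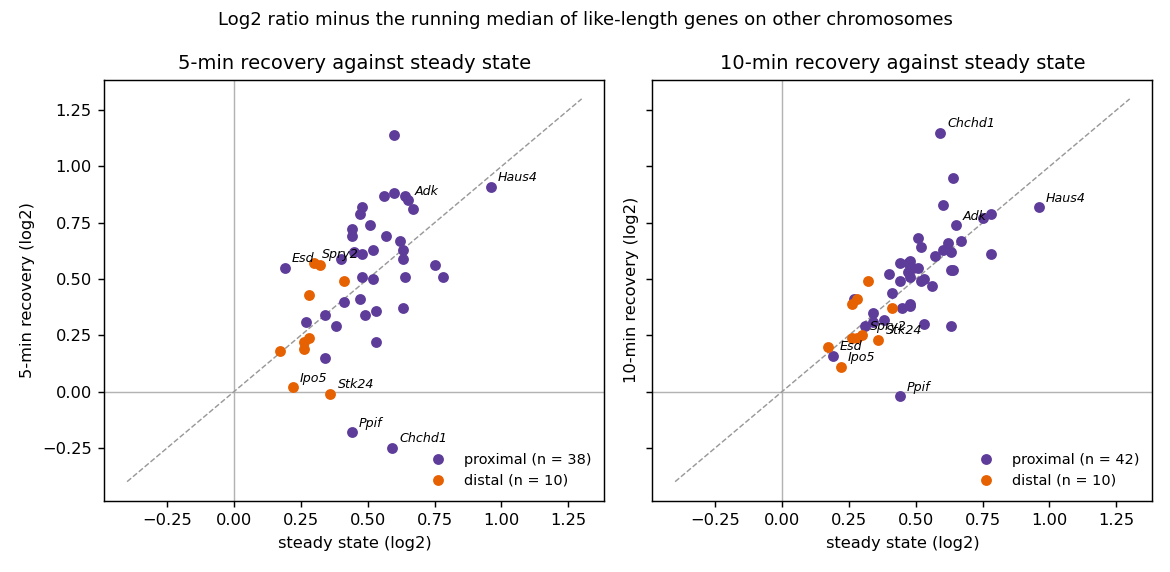
Log2 ratio of each listed gene minus the running median of genes of like length on other chromosomes, in 5-min (left, y axis) and 10-min recovery (right, y axis) against steady state (x axis), with proximal genes in purple, distal genes in orange and equality as a dashed line. At 10 min most genes lie near the line and distal genes at its lower end, while at 5 min the scatter is wider and Chchd1 (-0.25), Ppif (-0.18) and Stk24 (-0.01) lie under 0.

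The last test compared the change in recovery with that in steady state. The steady-state change, which chose the chromosome, is part of this comparison, so its p-values are not free of that choice. At 5 min 1 of 48 listed genes differed, against 0.0811% of the 8627 genes tested, and at 10 min 0 of 52 did by limma, against 0.0102% of 9823, with 1 at an unadjusted p under 0.05. The gene at 5 min was Chchd1, whose log2 change was 1.06 lower than in steady state (-1.06, standard error 0.11, limma adjusted p = 0.0221). That call was made on 13 to 20 reads per library and was lost with a pseudocount of 1, with libraries scaled to the median outside chromosome 14, with the replicate block, and without the first WT or the first EloA null library of that time. Of the other genes with a ratio under 0 at 5 min, Ppif differed from steady state by -0.65, Stk24 by -0.43 and Ipo5 by -0.33. Their limma adjusted p was 0.92, 0.777 and 0.92, so a difference between conditions was not shown for them. At 5 min the median ratio of like-length genes outside chromosome 14 was -0.00 for Ppif, -0.17 for Stk24 and -0.19 for Ipo5.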

How the data were processed

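Bru-seq libraries of WT and EloA null mESC were analysed from 3 tables, one per condition, in which the authors deposited RPKM per RefSeq gene and replicate. Per the labels and the study's methods, reads were aligned with Bowtie2 2.3.4.3 to mm10 and dm3, counted with featureCounts 1.6.1 and normalized with edgeR. The use of strand in counting and the scaling between tables are not given in the sources used here. RNA input is stated as 100 µg in the methods and otherwise in the labels, which was not resolved. The 16 CUT&RUN-seq and ChIP-seq samples were not analysed here, and the deposited mean columns were not used.

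The members, roles, lists and rules were chosen with earlier results of these data known. All 59 were named, with values per library for the 6 lowest, the 6 highest and the 3 nearest to 1.4-fold in steady state, and for others added after the values were seen. Genes were matched to RefSeq of GRCm38, the assembly of mm10, by symbol (24420) or older symbol (423). For 96.3% to 96.5% of expressed genes with introns, RPKM came out as whole reads (within 0.02) when length was taken as the summed introns of curated transcripts with the exon base on each side, against 3.79% to 4.55% with the full span. Reads were used only to describe depth.

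Log2 ratios are of mean RPKM. limma 3.58.1 in R 4.3.3 was fitted to log2(RPKM + 0.1) of all 12 libraries as 6 groups with an intensity trend, tested within a condition and adjusted by the Benjamini-Hochberg method over all genes above 0.5 RPKM. On it, changes of weakly transcribed genes come out too small. The departure test set each log2 change minus the median of the chromosome 14 genes not on the list against the same errors. The code was tested on simulated tables. Alternatives were a pseudocount of 1, RPKM limits, another scaling, the replicate block, single tables, genes without overlap and libraries left out. The distal boundary and the length adjustment were added after the data were seen.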

Additional observations from a re-analysis of the deposited data

Results flagged for a closer look

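Chchd1 had a log2 change that limma called different between conditions, on 13 to 20 reads per library at 5 min and 26 to 53 in steady state. The change at 5-min recovery minus that in steady state was -1.06 (limma adjusted p = 0.0221), with both EloA null libraries above both WT libraries in steady state and below them at 5 min. At 10 min the change minus that in steady state was 0.59 (standard error 0.11, limma adjusted p = 0.605). No other listed gene passed this test. The limma error was taken from RPKM and does not use read counts. The call was lost with a pseudocount of 1, with the other scaling and with the replicate block. It was also lost without the first WT or the first EloA null library of 5 min. Groups held 2 libraries each, so single libraries were not tested for standing apart.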

How the results depend on the processing

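The lower bound was passed by 25, 16 and 22 genes in steady state, at 5 min and at 10 min among genes that overlap no other gene, which are fewer genes by construction (30, 25 and 29), with medians of 0.50 in steady state, 0.44 at 5 min and 0.45 at 10 min. With libraries scaled to the median outside chromosome 14 the medians were 0.49, 0.58 and 0.40. At an RPKM limit of 2 the median was 0.56 with 23 genes past the bound at 5 min and 0.52 at 10 min, where it was 0.51 with no limit. Relative to genes of like length it was 0.48 in steady state and 0.49 at 10 min, and for genes before the distal end 0.54 at 10 min, both added after the data were seen. No called value changed sign under the alternatives run, and beyond the counts named here the cause of a move was not tested.

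Leaving out one library gave medians from 0.49 to 0.56 in steady state, 0.41 to 0.51 at 5 min and 0.48 to 0.52 at 10 min, and 48 to 53, 31 to 40 and 41 to 44 genes past the bound. It gave 6 to 15 genes called higher at 5 min and 1 to 3 at 10 min, 8 to 15 and 4 to 6 that departed from the chromosome 14 median, and 0 to 1 that differed from steady state at 5 min. The lone library is assumed to vary like the other groups. From the 4 libraries of a table alone, limma called 0 genes higher at 5 min (24 at an unadjusted p under 0.05) and 0 at 10 min (33), and 0 departed at 5 min (5). At 5 min 0 genes differed from steady state with a pseudocount of 1 (7 at an unadjusted p under 0.05), with the other scaling and with the replicate block (4).

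Same-numbered libraries share only a number, with correlations of their deviations of 0.10, 0.12 and 0.10 over genes in the 3 conditions. With the replicate block 15 genes rose at 5 min and 6 at 10 min. Per gene, 75 of 431 limma alternatives at 5 min and 102 of 468 at 10 min lost the call in the same direction, 8 and 5 gained it, and 0 reversed a called value. A change that was not called changed sign in 10 alternatives at 5 min and 4 at 10 min. Without the second WT library these were, at 5 min, Camk2g (0.07 to -0.16), Ccar2 (0.32 to -0.06), Prmt5 (0.36 to -0.11), Otx2 (0.12 to -0.13), Exoc5 (0.13 to -0.02) and Tgds (0.13 to -0.03), and at 10 min Ipo5 (to -0.12) and Ppif (to -0.04). Without the first EloA null library they were, at 5 min, Camk2g (-0.15), Ubac2 (-0.04) and Tgds (-0.01), and at 10 min Ipo5 (-0.01). With the other scaling Ppif reached 0.00 at 5 min and Ipo5 -0.06 at 10 min. Depth limits the short genes most, with 3 reads as the lowest count.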
